A study of Mus musculus with 18 samples.

Results

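The genes described here were 10 components of the Notch pathway in mouse embryonic stem (ES) cells and PA6 stromal cells: the receptors NOTCH1, NOTCH2, NOTCH3 and NOTCH4, the ligands JAG1, DLL1 and DLL3, and the target genes HES1, HES5 and HEY1. They were chosen by gene name, and every probe carrying one of these names was taken, which gave 13 of the 45281 probes of an Illumina MouseWG-6 v2.0 bead array and 10 of its 30854 gene names. The study asked which genes respond while FGF2 or BMP4 directs ES cells towards endothelium on a stromal layer. ES cells were seeded on PA6 monolayers (ES/PA6 co-cultures), or PA6 cells were kept alone (PA6 mono-cultures), for 3 days in serum-free medium, either without growth factors (-GFs), with 20 ng/ml of recombinant FGF2, or with 10 ng/ml of recombinant BMP4 as the labels give it (the methods of the study state another BMP4 dose). Each of the 6 groups held 3 arrays, and each biological replicate was a set of wells, 1 per condition. The ES cells were a knock-in line carrying enhanced green fluorescent protein under the tau promoter, PA6 is a stromal line, and all groups shared the serum-free medium. A co-culture array measured RNA of both cell types together, and fewer cells of a type cannot be told apart there from less RNA per cell.

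Notch receptors sit in the membrane of a cell and are bound by Jagged and Delta-like ligands on its neighbour. Binding leads to cleavage of the receptor, and the freed intracellular part enters the nucleus, where it joins the DNA-binding protein RBPJ and switches on target genes, above all those of the HES and HEY families of transcriptional repressors. In early embryos and differentiating ES cells the pathway is known for keeping neural progenitors undifferentiated, through HES1 and HES5, and in forming vessels for its part in endothelial and arterial fate, where NOTCH4, HEY1 and HEY2 are used.

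The label of each culture was borne out by its markers. All 6 pluripotency genes examined (POU5F1, NANOG, SOX2, ZFP42, DPPA4, TDGF1) were detected on every co-culture array, whereas 5 of the 6 were detected on no array of the PA6 -GFs group. POU5F1 was detected on all 3 arrays of each mono-culture group, at 6.59 to 7.41 against 13.00 to 13.37 in co-cultures. NANOG was detected on 1 PA6 BMP4 array and ZFP42 on 1 PA6 FGF2 array. All 6 stromal genes (COL1A1, COL1A2, COL3A1, THY1, PDGFRB, CXCL12) were detected on every array, with a summed normalized intensity of 27465 to 47215 in co-cultures and 72832 to 97873 in mono-cultures. Of 6 neural genes, SOX1, PAX6, TUBB3 and NEUROG2 were detected on no co-culture array, so that the neural signal consisted of NES and ZIC1. Of 6 endothelial genes 3 were detected on all arrays of each co-culture group and TIE1 on none of them, and the mesoderm genes MIXL1, EOMES and MESP1 were detected on no array at all. Between 17125 and 20412 probes were detected per array, the median raw intensity lay between 115 and 159, and arrays of a group correlated at 0.981 to 0.992 across genes.

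Values are normalized log2 intensities, and a probe was called detected where its deposited detection p-value against the negative control beads was under 0.05. A difference was called where the adjusted p of the limma fit over all 16446 genes tested was under 0.1 and the log2 fold change exceeded 1 in either direction, the thresholds of the study. Of the 10 members 8 could be tested. NOTCH2, with 2 probes at 4.86 to 5.97, and DLL3, with 1 probe at 4.93 to 5.67, were detected on 0 of 18 arrays, which says only that these probes did not rise above the control beads. The -GFs arrays of a culture type served as reference for both FGF2 and BMP4, so these comparisons are not independent of each other.

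**Figure D1:**
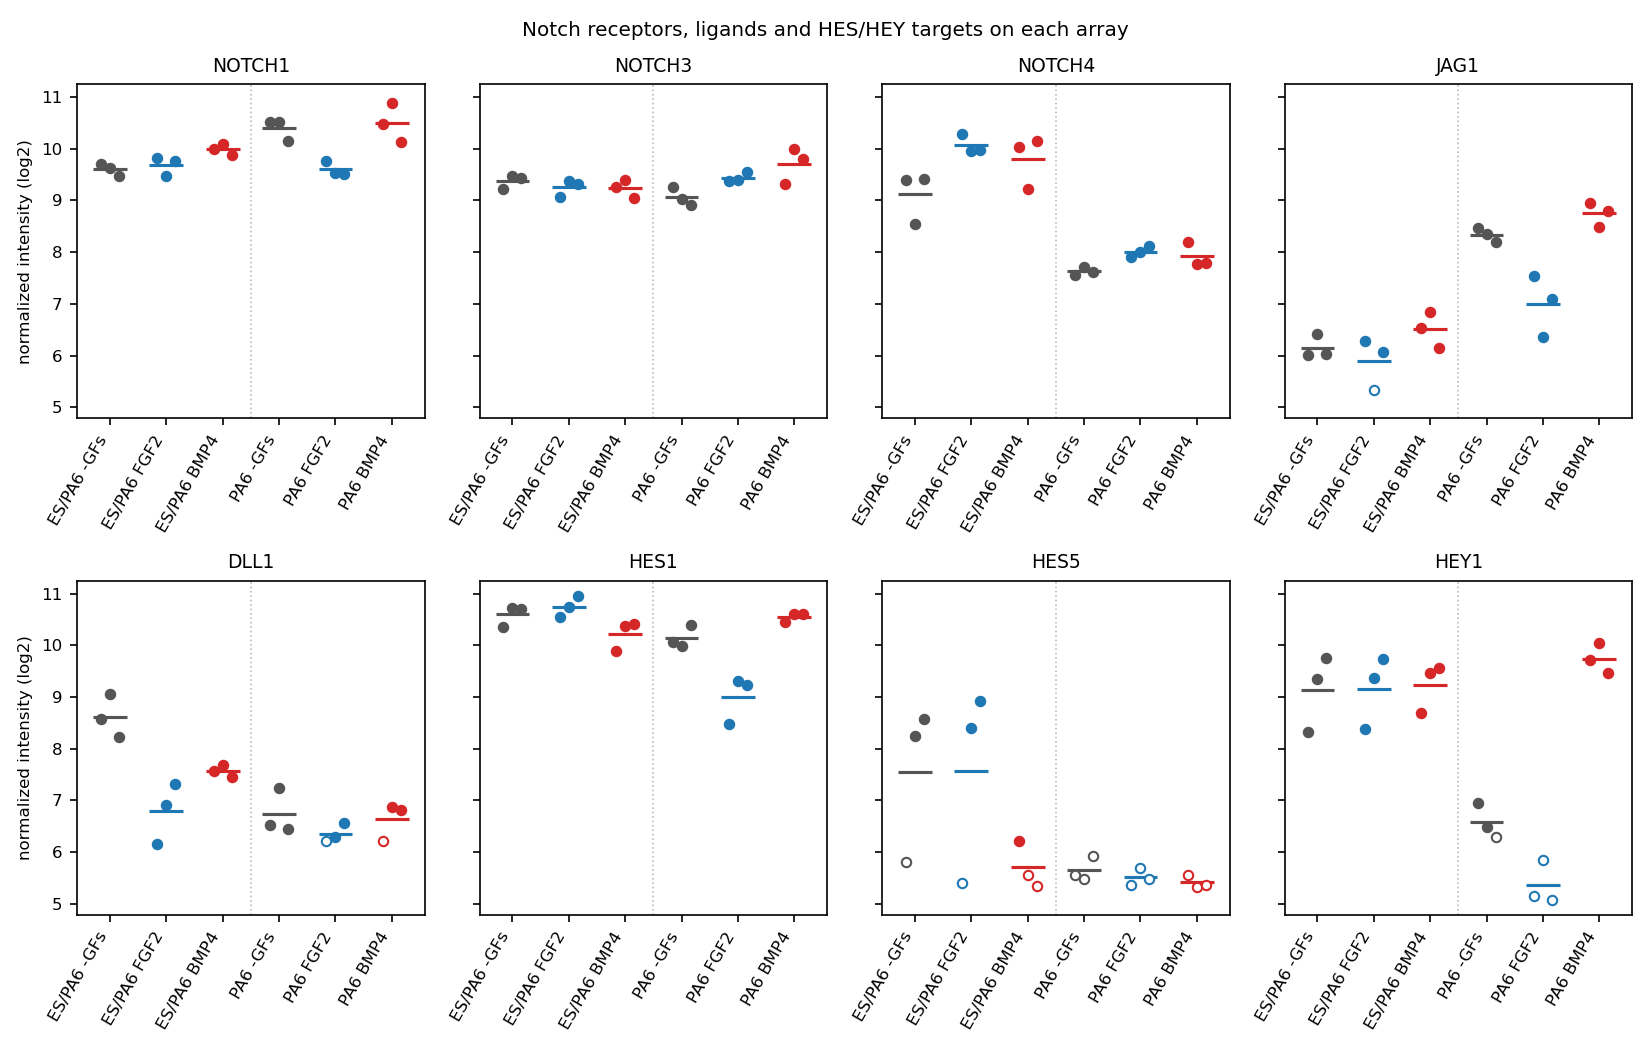
Normalized log2 intensity (vertical axis) of the 8 tested genes on each of the 18 arrays, by group (horizontal axis), with 1 point per array, a bar at the group mean and open points where the probe was not detected. DLL1 is high in the ES/PA6 -GFs group alone (8.22 to 9.06), JAG1 is high in PA6 mono-cultures, HES5 is detected in co-cultures only, and HEY1 in mono-cultures runs from undetected with FGF2 to 9.47 and above with BMP4.

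Among the receptors, none passed both thresholds in a growth factor comparison. NOTCH1, the most widely used receptor of the family, was detected on all 18 arrays. In PA6 mono-cultures it was at 10.51, 10.52 and 10.15 in -GFs medium and at 9.76, 9.54 and 9.52 with FGF2, a difference of -0.79 ± 0.171 (SE; adjusted p 0.00484) that passed the p threshold but not the fold threshold. The ranges of those groups did not overlap. With BMP4 the mono-cultures stood at 10.14 to 10.89, and the co-cultures at 9.48 to 10.10 in all 3 media.

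NOTCH4, a receptor known chiefly from endothelium, was highest in co-cultures. It was at 9.40, 8.55 and 9.42 in ES/PA6 -GFs, at 10.28, 9.95 and 9.98 with FGF2 and at 10.04, 9.22 and 10.16 with BMP4. All FGF2 arrays lay above all -GFs arrays, and the difference of 0.95 ± 0.244 (adjusted p 0.0282; 1.93-fold) fell just short of the fold threshold. It passed that threshold without -GFs replicate 1 or 3 (1.09 each), without FGF2 replicate 2 (adjusted p 0.054), and under median scaling (1.01) or array weights (1.02). The BMP4 difference was 0.68 ± 0.244 (adjusted p 0.267), with overlapping groups and differences of 0.64, 0.67 and 0.74 in the 3 replicate sets. With the replicate set as a block, the adjusted p was 0.00363 for FGF2 and 0.0518 for BMP4. Both differences stayed under the fold threshold. In mono-cultures NOTCH4 ranged from 7.55 to 8.20. PECAM1, from the list of 6 endothelial genes, stood in co-cultures at 8.11 to 9.56 in -GFs, 9.71 to 10.35 with FGF2 and 9.88 to 10.33 with BMP4, where it was called higher. The 6 listed genes, of which PECAM1 and TEK were the brightest, summed to 834 to 1409, 1520 to 2200 and 1613 to 2455 there. TIE1 was detected on no co-culture array, and these sums cannot be read as an amount of endothelial cells. With FGF2 0 of the 5 tested endothelial genes were called, and the means of KDR (6.36 in -GFs and 6.15 with FGF2) and ICAM2 (6.49 and 6.05) lay the other way. CDH5, which encodes VE-cadherin, was detected in co-cultures on 1 -GFs, 2 FGF2 and 1 BMP4 array. TEK was not confined to co-cultures, with a mean of 8.50 in ES/PA6 -GFs and 8.06 in PA6 -GFs. The 6 pluripotency genes summed to 31944 to 43641 in -GFs, 45180 to 54601 with FGF2 and 40318 to 49278 with BMP4. With FGF2 the means of NANOG, ZFP42, SOX2 and TDGF1 were higher than in -GFs. Those of POU5F1 (13.19 in -GFs and 13.09 with FGF2) and DPPA4 (13.88 and 13.65) lay the other way. The part of these endothelial and pluripotency genes in the NOTCH4 values was not tested. The second NOTCH4 probe was detected on 1 array of 18 and was not tested.

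NOTCH3, which is typical of mural and stromal cells, varied least, between 8.92 and 9.99 over all arrays. Its mean in mono-cultures was 9.07 in -GFs, 9.44 with FGF2 and 9.70 with BMP4, and the BMP4 difference of 0.63 ± 0.165 (adjusted p 0.0576) was under the fold threshold. In co-cultures NOTCH3 differed from -GFs by -0.12 with FGF2 (95% interval -0.47 to 0.23) and by -0.14 with BMP4 (-0.49 to 0.21).

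The ligand DLL1, a Delta-like protein that presents the signal to neighbouring cells, was the only member called against -GFs in co-cultures. It was at 8.57, 9.06 and 8.22 in -GFs medium, at 6.15, 6.91 and 7.32 with FGF2 and at 7.56, 7.69 and 7.46 with BMP4. The 3 groups did not overlap, and the order was -GFs, BMP4, FGF2. DLL1 fell by 1.83 ± 0.287 on the log2 scale with FGF2 (adjusted p 0.00092; 3.54-fold), and it was the only one of the 8 tested members called in that comparison, against 3.34% of all genes called. DLL1 and NOTCH4 were the 2 of 8 members whose groups did not overlap, against 19.3% of all genes. The DLL1 call held in each of the 20 alternatives in which it was tested, with an adjusted p of 0.000118 to 0.0171.

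With BMP4 the DLL1 difference was -1.05 ± 0.287 (adjusted p 0.113), with -1.01, -1.37 and -0.76 in the 3 replicate sets, and no member was called, against 0.760% of all genes. The groups did not overlap for 2 of 8 members, NOTCH1 and DLL1, against 13.0% of all genes. At an unadjusted p under 0.05 there were 4 of 8 members in that comparison, NOTCH1, NOTCH4, DLL1 and HES5, against 10.9% of all genes. With the replicate set as a block DLL1 was called there (adjusted p 0.0499), as it was with trended and robust variances (0.0863) and without -GFs replicate 3 (-1.24). FGF2 and BMP4 differed in DLL1 by -0.78 ± 0.287 (adjusted p 0.152), and 0 members were called between the factors in co-cultures, where 2.85% of all genes were. There 4 of 8 members had an unadjusted p under 0.05, against 17.4% of all genes.

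In mono-cultures DLL1 was near the detection limit, at 6.21 to 7.23, and was not detected on 1 FGF2 and 1 BMP4 array. It did not pass the test there (-0.38 ± 0.287 with FGF2 and -0.11 ± 0.287 with BMP4), and a fall from that level is only weakly bounded. The FGF2 difference in co-cultures minus that in mono-cultures was -1.44 ± 0.406 (adjusted p 0.0329), a test of the difference itself that was lost without replicate set 1 of the co-cultures (-1.15, adjusted p 0.128). The summed level of the 6 neural genes in co-cultures stood at 410 to 2170 in -GFs, 323 to 1430 with FGF2 and 253 to 449 with BMP4, and its part in the DLL1 values was not tested. Of the other marker genes in this FGF2 comparison, the pluripotency genes NANOG and ZFP42 were called higher, and the stromal gene THY1 and the adipocyte gene ADIPOQ were called lower. Their part was not tested either.

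JAG1, the Jagged ligand, had its highest group means in PA6 mono-cultures. It was at 8.47, 8.35 and 8.20 in PA6 -GFs, at 7.53, 6.35 and 7.09 with FGF2 and at 8.96, 8.49 and 8.80 with BMP4, and no array of a group lay within another group. JAG1 fell by 1.35 ± 0.281 on the log2 scale with FGF2 (adjusted p 0.0036; 2.55-fold), and the BMP4 difference was 0.41 ± 0.281 (adjusted p 0.648). Between the factors JAG1 was 3.39-fold lower with FGF2 than with BMP4 (adjusted p 0.00035). In co-cultures it was near the detection limit, between 5.34 and 6.85, and was not detected on 1 FGF2 array. Without background correction the FGF2 fall in mono-cultures shrank to -0.89, under the fold threshold, by quantile as by spline normalization.

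Among the targets, HES1 and HEY1 were called in PA6 mono-cultures, and no target was called for either factor against -GFs in co-cultures. HES1, a repressor expressed in many progenitors and in stroma, was at 10.07, 9.98 and 10.39 in PA6 -GFs, at 8.48, 9.30 and 9.23 with FGF2 and at 10.45, 10.61 and 10.61 with BMP4. All FGF2 arrays lay below all others. HES1 fell by 1.15 ± 0.209 on the log2 scale (adjusted p 0.00125; 2.22-fold) against -GFs and was 2.94-fold lower than with BMP4 (adjusted p 7.12e-05). Without PA6 FGF2 replicate 1 the fall against -GFs was -0.89 (adjusted p 0.0054), under the fold threshold. In co-cultures HES1 stayed between 9.88 and 10.95, with 0.15 ± 0.209 for FGF2 and -0.37 ± 0.209 for BMP4, neither of which passed the test. The FGF2 difference itself differed between the culture types by 1.30 ± 0.296 (adjusted p 0.0106), and this held in each of the 26 alternatives.

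HEY1, a repressor induced by Notch and, in mesenchymal cells, by BMP signalling, had the largest change among the members. In PA6 -GFs it was at 6.94, 6.49 and 6.29, the last not detected, with FGF2 at 5.15, 5.85 and 5.08, none detected, and with BMP4 at 9.71, 10.04 and 9.47. The 3 groups did not overlap. HEY1 rose by 3.16 ± 0.38 on the log2 scale with BMP4 (adjusted p 0.000331; 8.96-fold), by 2.77, 3.54 and 3.18 in the 3 sets, and was the only member called, where 1.41% of all genes were. The BMP4 and -GFs arrays did not overlap for 5 of 8 members, against 21.5% of all genes. The HEY1 call held in each of the 19 alternatives in which it was tested, with a log2 fold change of 2.30 to 3.39.

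With FGF2 HEY1 was at least 1.24-fold lower than in -GFs (adjusted p 0.0423). This bound sets the -GFs mean against the lowest detected signal of the FGF2 arrays, since HEY1 itself was not detected there. The call was lost in 6 of 19 alternatives: the 2 without background correction, the offset of 50, and the fits without PA6 -GFs replicate 1, PA6 FGF2 replicate 1 or PA6 FGF2 replicate 3 (adjusted p 0.119 to 0.158). Against BMP4 it was at least 11.1-fold lower with FGF2 (adjusted p 1.03e-06). With HES1 and JAG1, this made 3 of 8 tested members lower with FGF2 than in -GFs in mono-cultures, where 5.27% of all genes were called and 2.56% were lower. The same 3 members were lower with FGF2 than with BMP4, where 5.82% of all genes were called and 2.94% were lower. FGF2 and -GFs arrays did not overlap for 6 of 8 members, against 33.8% of all genes.

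The mono-cultures also differed in adipocyte genes, to which PA6 preadipocytes can give rise. The 4 genes on the array (ADIPOQ, CFD, CIDEC, and FABP4, which was detected nowhere) summed to 8104 to 11376 in -GFs, 279 to 452 with FGF2 and 22804 to 52089 with BMP4, and their group means ran in the same order as those of JAG1, HES1 and HEY1. Their part in these results was not tested. In co-cultures the sum was 383 to 2860, 175 to 435 and 4070 to 24536 in the same media, while HEY1 there was at 8.32, 9.34 and 9.75 in -GFs, at 8.38, 9.37 and 9.73 with FGF2 and at 8.69, 9.46 and 9.57 with BMP4. HEY1 in co-cultures thus differed between replicate sets and not detectably between media (0.02 with FGF2, 95% interval -0.78 to 0.83, and 0.10 with BMP4, -0.71 to 0.91). The BMP4 difference in co-cultures minus that in mono-cultures was -3.06 ± 0.538 (adjusted p 0.0219), and HEY1 was the only member called in this comparison of differences, where 0.559% of all genes were.

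**Figure D2:**
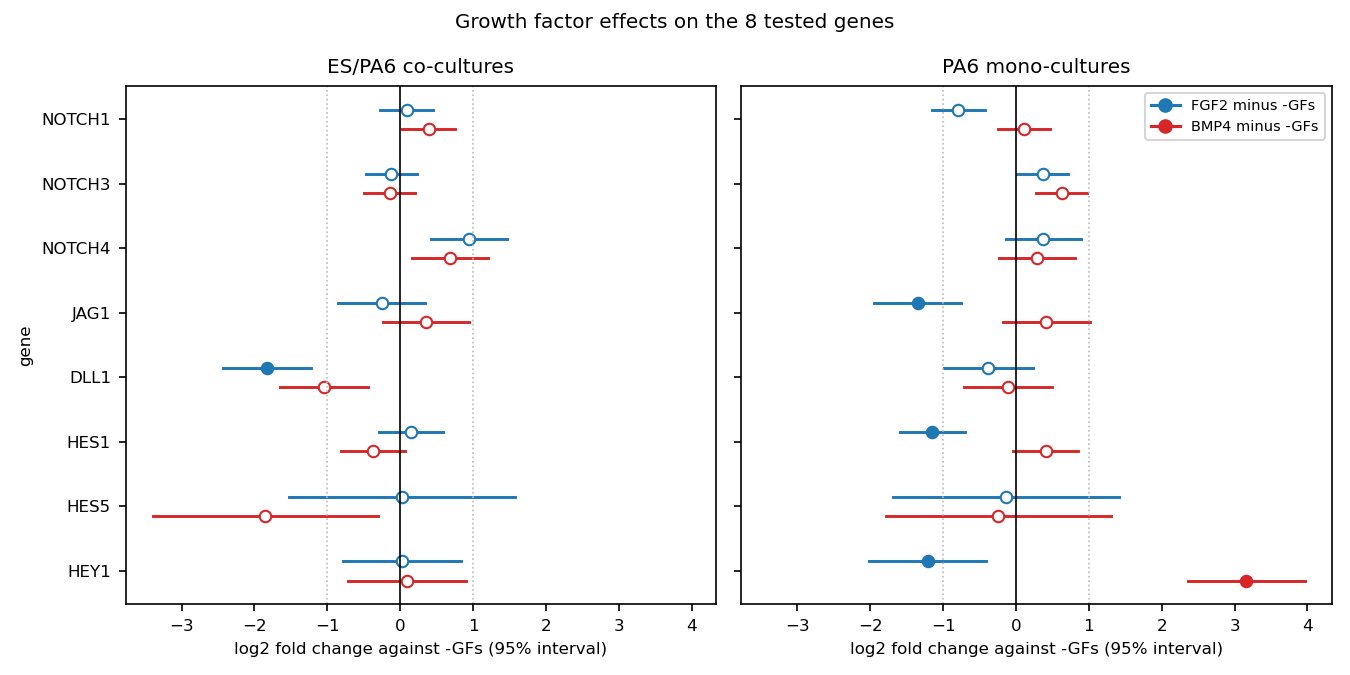
Log2 fold change against -GFs (horizontal axis) with its 95% interval for the 8 tested genes (vertical axis), FGF2 in blue and BMP4 in red, in co-cultures (left) and mono-cultures (right). Filled points passed both thresholds and dotted lines mark a log2 fold change of 1 in each direction. DLL1 with FGF2 is the filled point among co-cultures, and JAG1, HES1 and HEY1 with FGF2 and HEY1 with BMP4 are those among mono-cultures.

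HES5, the target most closely tied to neural progenitors, split by replicate set. In co-cultures it was at 5.81, 8.25 and 8.58 in -GFs, at 5.40, 8.40 and 8.93 with FGF2 and at 6.22, 5.55 and 5.34 with BMP4. It was detected in sets 2 and 3 of the -GFs and FGF2 groups and, with BMP4, in set 1 only. The BMP4 difference was 0.41, -2.70 and -3.25 in the 3 sets and -1.85 ± 0.73 over all (adjusted p 0.341), which did not pass the test. It passed without -GFs replicate 1 (-2.72, adjusted p 0.0749). It also passed without replicate set 1 of the co-cultures, an alternative added after the data were seen (-2.97, adjusted p 2.35e-05). Without set 1, however, HES5 was detected only on -GFs and FGF2 co-culture arrays, where it was high. That call was therefore built in and is no result of the test.

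Between the factors HES5 was 1.88 ± 0.73 higher with FGF2 (adjusted p 0.178), called with the replicate set as a block (adjusted p 0.076), without FGF2 replicate 1 (2.96) and without set 1 (3.22). The call without set 1 was built in, as it was for BMP4 against -GFs. The FGF2 difference against -GFs was 0.03 ± 0.73, with an interval of -1.52 to 1.58. The second HES5 probe was at 5.01, 7.54 and 8.03 in -GFs, at 5.83, 7.45 and 8.21 with FGF2 and at 5.02, 5.39 and 4.94 with BMP4. It was detected in sets 2 and 3 of the first 2 groups and on no BMP4 array. In a fit over all kept probes it was called higher with FGF2 than with BMP4 (2.05 ± 0.604, adjusted p 0.0679), unlike the first probe (adjusted p 0.178), and it was not called for BMP4 against -GFs (-1.74 ± 0.604, adjusted p 0.257). This second probe passed the detection filter only through -GFs and FGF2 co-culture arrays, where it was high. Its call against BMP4 was therefore built in and is no result of the test. In mono-cultures neither probe was detected on any array, so HES5 entered the test through 5 co-culture arrays alone.

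The neural genes NES and ZIC1 were, like HES5, lowest in set 1 in -GFs and FGF2 medium. So were HEY1, the endothelial gene ICAM2 and the mesoderm gene T, though ICAM2 and T were undetected on some of those arrays. With BMP4 NES rose from set 1 to set 3, whereas the first HES5 probe was detected in set 1 only and the second in none. NES, an intermediate filament of neural progenitors, was at 7.43, 9.36 and 9.69 in -GFs, 6.87, 8.65 and 9.21 with FGF2 and 6.28, 6.69 and 8.05 with BMP4. ZIC1, an early neural transcription factor, was at 6.52, 8.29 and 10.23 in -GFs and at 6.15, 8.39 and 9.40 with FGF2, and was detected on no BMP4 array. The part of any of these genes in the HES5 values was not tested. NRARP, a Notch target that feeds back on the pathway and was singled out after its values were seen, was at 8.80, 9.93 and 10.81 in -GFs, 8.72, 10.27 and 10.94 with FGF2 and 7.51, 7.70 and 8.84 with BMP4. It was lower with BMP4 in all 3 sets, with a difference of -1.82 ± 0.523 against -GFs (adjusted p 0.131), and was 1.96 ± 0.523 higher with FGF2 than with BMP4 (adjusted p 0.0397).

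**Figure D3:**
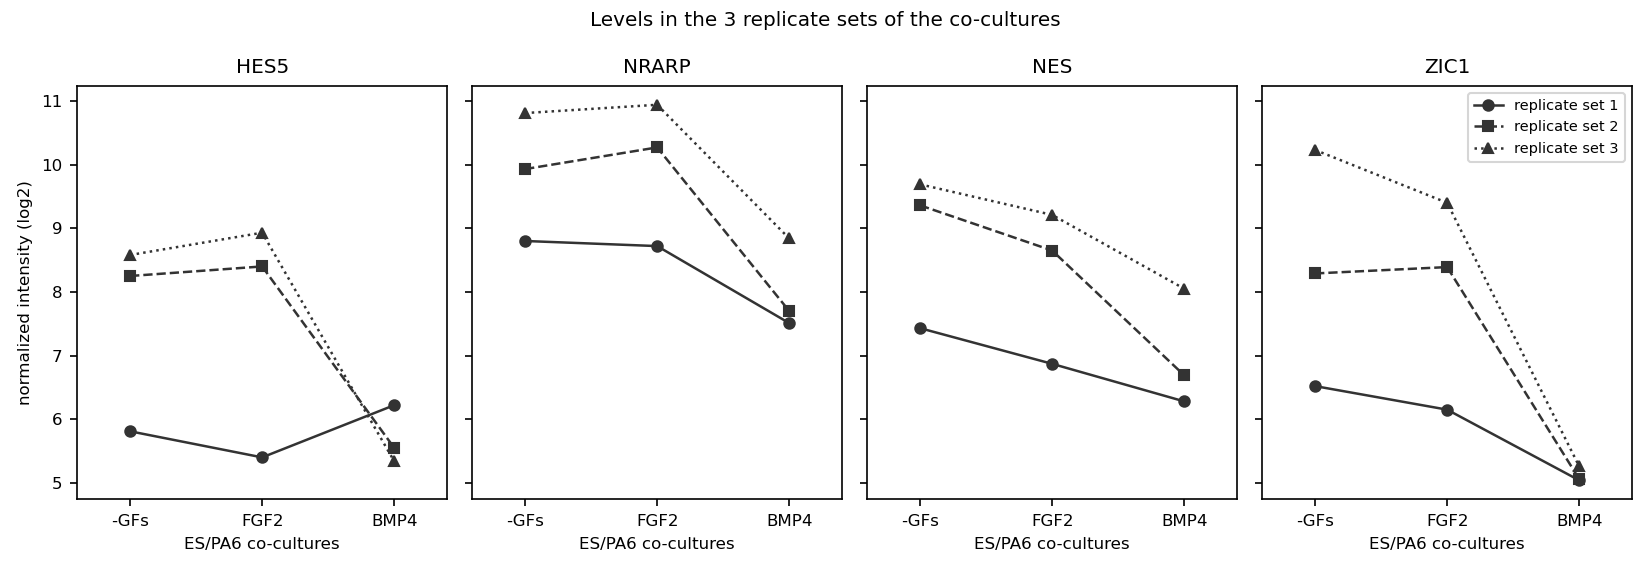
Normalized log2 intensity (vertical axis) of HES5, NRARP, NES and ZIC1 in the co-cultures by medium (horizontal axis), with a line for each of the 3 replicate sets. Set 1 is the lowest set in -GFs and FGF2 medium for all 4 genes, and HES5 is at 5.34 to 6.22 in all 3 sets with BMP4.

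The promoters of HES5 and of 3 other genes named here show how the genes differ in the core letters that RBPJ reads, TGGGAA, searched on both strands in the 250 bases before the start site. They are given from RefSeq on GRCm38.p6, 5′ to 3′ along the gene, with TGGGAA or its reverse complement TTCCCA in capitals. HES5 lies on the plus strand at chr4:154960673-154960922, HEY2 on the minus strand at chr10:30842784-30843033, NRARP on the plus strand at chr2:25180508-25180757, and the more upstream of 2 DLL1 starts on the minus strand at chr17:15376933-15377182.
HES5: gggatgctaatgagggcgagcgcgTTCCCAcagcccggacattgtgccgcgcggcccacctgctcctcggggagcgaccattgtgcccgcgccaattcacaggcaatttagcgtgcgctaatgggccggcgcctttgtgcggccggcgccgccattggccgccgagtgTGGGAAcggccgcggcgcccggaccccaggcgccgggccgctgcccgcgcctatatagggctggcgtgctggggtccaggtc
HEY2: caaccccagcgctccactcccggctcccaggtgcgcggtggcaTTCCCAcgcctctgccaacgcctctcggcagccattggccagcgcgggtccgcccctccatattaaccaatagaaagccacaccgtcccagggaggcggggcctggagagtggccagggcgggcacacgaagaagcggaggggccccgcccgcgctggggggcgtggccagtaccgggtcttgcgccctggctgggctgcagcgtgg
NRARP: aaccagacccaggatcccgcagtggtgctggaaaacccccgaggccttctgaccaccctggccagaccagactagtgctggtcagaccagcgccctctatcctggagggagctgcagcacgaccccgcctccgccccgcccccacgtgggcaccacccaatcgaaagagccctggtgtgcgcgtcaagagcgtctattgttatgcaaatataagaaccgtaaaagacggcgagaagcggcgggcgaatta
DLL1: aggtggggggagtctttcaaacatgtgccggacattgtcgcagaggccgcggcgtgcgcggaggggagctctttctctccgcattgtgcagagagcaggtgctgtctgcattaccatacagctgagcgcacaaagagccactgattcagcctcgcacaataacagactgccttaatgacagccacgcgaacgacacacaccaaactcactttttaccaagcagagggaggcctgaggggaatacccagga
HES5 held 2 matches, beginning 226 and 82 bases before its start, HEY2 held 1 match at 207 bases, and NRARP and DLL1 held none. Of 32851 promoter windows of this length 21.6% held at least 1 match. Windows were given for 8 of the 10 members (9 windows), and HES5 was the only one of these members with a match. The N-box CACNAG, to which HES proteins bind, occurred at 1 place each in NOTCH1 and NOTCH2, at 2 places in NOTCH3 and in NRARP, and in 36.7% of all windows. A match is a run of letters and not a measured binding site. HES1 and HEY1 were not analysed for these letters.

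Between the culture types in -GFs medium, 5 of the 8 tested members were called, against 39.0% of all genes. DLL1, NOTCH4, HES5 and HEY1 were higher in co-cultures, and JAG1 was higher in mono-cultures. DLL1 was 3.68-fold higher (1.88 ± 0.287, adjusted p 2.27e-05), NOTCH4 2.82-fold (1.49 ± 0.244, adjusted p 4.66e-05) and HEY1 5.91-fold (2.56 ± 0.38, adjusted p 1.69e-05). The HES5 call (adjusted p 0.0307) was built in, since HES5 passed the detection filter through co-culture arrays alone, and it is no result of the test. Its ES/PA6 -GFs arrays at 5.81, 8.25 and 8.58 overlapped those of PA6 -GFs at 5.55, 5.47 and 5.93, and the call was lost without ES/PA6 -GFs replicate 2 or 3 (adjusted p 0.112 and 0.14). JAG1 was 4.56-fold lower (-2.19 ± 0.281, adjusted p 3.53e-06). NOTCH1 differed by -0.79 ± 0.171 (adjusted p 0.000623), under the fold threshold, while HES1 differed by 0.45 ± 0.209 (adjusted p 0.0718), also under it, and NOTCH3 by 0.30 ± 0.165 (adjusted p 0.116). The median over all genes in this comparison was -0.11, and the ES cells themselves were not measured alone.

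Ordered by mean, JAG1 ran PA6 BMP4, PA6 -GFs, PA6 FGF2 and then the co-cultures. Only the first 2 steps of this order were clear of overlap between arrays, and the first was not called (limma adjusted p 0.648). DLL1 ran ES/PA6 -GFs, ES/PA6 BMP4, ES/PA6 FGF2 and then the mono-cultures, again with the first 2 steps clear of overlap. HEY1 ran PA6 BMP4 and then the 3 co-culture groups, which overlapped, followed by PA6 -GFs and PA6 FGF2, each clear of the group above it. HES1 had its lowest mean in PA6 FGF2, clear of PA6 -GFs at 10.15, while the other group means ran from there to 10.74. The FGF2 difference between culture types was called for 3 of 8 members, DLL1, HES1 and JAG1, where 7.39% of all genes were. JAG1, at 1.10 ± 0.398 (adjusted p 0.0964), kept this call in 9 of 25 alternatives. With the replicate set as a block, which pairs the co-cultures, HEY1 was called as well (1.24, adjusted p 0.00545, against 0.169 without the block).

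A wider list of 41 pathway genes held 39 with a probe and 31 that were tested. In co-cultures 0 of the 31 were called with FGF2, beside 3.34% of all genes, and 3 with BMP4, beside 0.760%, all lower: MFNG, DTX4 and HES6. In mono-cultures NEURL was called higher and HEY2 lower with FGF2, beside 5.27% of all genes called, and DTX4 lower with BMP4, beside 1.41%. The median of the list was -0.04 for FGF2 and 0.02 for BMP4 in co-cultures and -0.20 and 0.03 in mono-cultures, beside -0.01, -0.00, -0.01 and 0.01 over all genes.

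MFNG, a fringe enzyme that adds sugar to Notch receptors and so sets which ligands they answer, was at 8.22, 8.64 and 8.64 in ES/PA6 -GFs and at 7.39, 6.79 and 7.25 with BMP4, a fall of 1.36 ± 0.202 on the log2 scale (adjusted p 0.00614). It was at 8.03 to 8.61 with FGF2 and was detected on no mono-culture array. DTX4, a Deltex ubiquitin ligase, was at 8.09, 8.77 and 8.69 in ES/PA6 -GFs and at 6.95, 6.72 and 6.87 with BMP4. It fell by 1.67 ± 0.247 on the log2 scale there (adjusted p 0.00614) and by 1.67 ± 0.247 in mono-cultures (adjusted p 0.00143), where it went from 8.39 to 9.16 in -GFs to 6.78 to 7.16. HES6, which counteracts HES1 in neural progenitors, fell by 1.07 ± 0.189 on the log2 scale with BMP4 in co-cultures (adjusted p 0.015), from 11.38 to 11.59 down to 10.35 to 10.47. With FGF2 it differed by -0.96 ± 0.189 (adjusted p 0.00533), under the fold threshold. With the co-culture arrays fitted alone, 0 pathway genes were called for BMP4 in co-cultures.

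HEY2, a close relative of HEY1, was a transcript of the mono-cultures. It was at 8.13, 8.41 and 8.09 in PA6 -GFs, at 7.97, 8.64 and 8.12 with BMP4, and was detected on no FGF2 array and no co-culture array. It was at least 3.86-fold lower with FGF2 than in -GFs (adjusted p 1.51e-08). HEY2 passed the detection filter only through -GFs and BMP4 mono-cultures, where it was high, so this p is not independent of the filter. NEURL, a Neuralized ubiquitin ligase acting on Delta ligands, rose by 1.08 ± 0.168 on the log2 scale with FGF2 in mono-cultures (adjusted p 0.00031), from 7.77 to 7.91 up to 8.67 to 9.12. This call was lost without background correction, with the offset of 50 and with the mean of all kept probes. RBPJ, DLL4, LFNG, ADAM10, HEYL, HES2, HES3 and HES7 did not pass the detection filter, and nothing can be said of their changes.

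**Figure D4:**
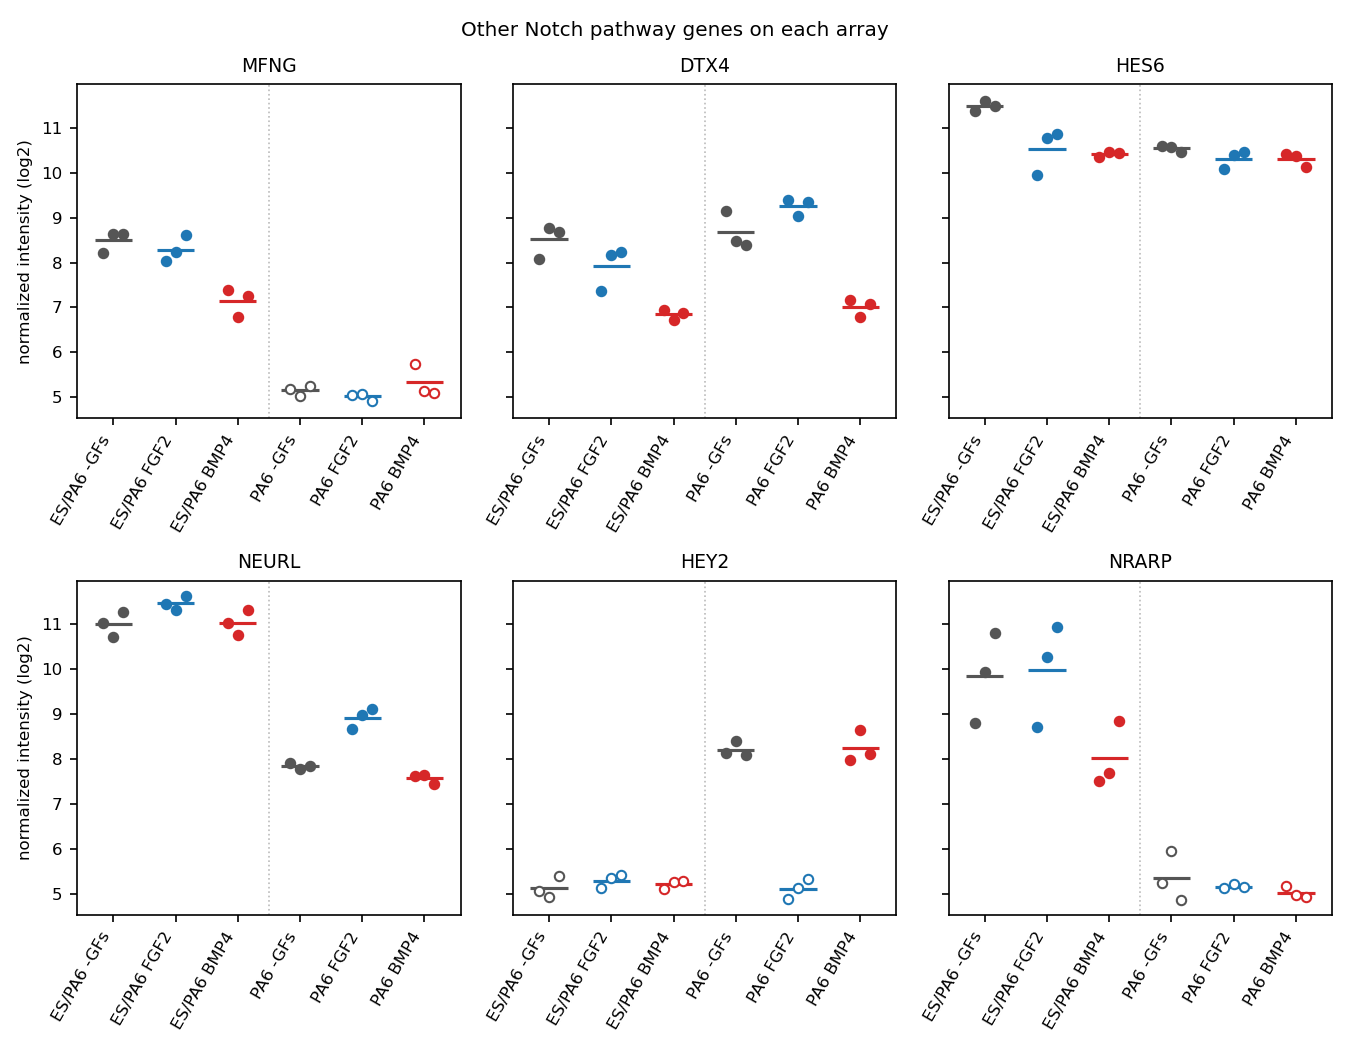
Normalized log2 intensity (vertical axis) of 6 further pathway genes on each array by group (horizontal axis), with a bar at the group mean and open points where the probe was not detected. MFNG, DTX4 and HES6 are lower with BMP4 than in -GFs in co-cultures, DTX4 is also lower with BMP4 in mono-cultures, and HEY2 is detected in PA6 -GFs and PA6 BMP4 only.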

How the data were processed

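Total RNA of 18 cultures was hybridised to single-colour Illumina bead arrays. The authors deposited non-normalized bead summary intensities from GenomeStudio 2011.01 (a version per the labels), with a detection p-value per probe and array, deposited beside each intensity. 5 stray lines after the probe rows were left out. The authors' own analysis used cubic spline normalization. Here intensities were background corrected and quantile normalized to log2 values with neqc (limma 3.58.1, R 4.3.3, offset 16, negative controls inferred from detection p-values). Probes with a detection p-value under 0.05 on at least 3 of 18 arrays were kept (22987 of 45281), and per gene the probe with the largest mean was taken, as the authors did, giving 16446 genes. A linear model with 6 group means was fitted over all genes with moderated variances, and p-values were adjusted by the Benjamini-Hochberg method over all genes of a comparison. The code was tested on simulated data.

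Groups and replicate numbers came from the labels, and array columns were matched to samples by group letter and replicate number. Every member was reported, per-array values were given for members called in a growth factor comparison, and pathway genes were named where called against -GFs. The members and all gene lists were chosen with earlier results of these data known. A few genes of these lists are not reported here. Same-numbered co-cultures deviated together from their group means (correlations 0.325 to 0.521 over 9 pairs), and the labels describe each replicate as a set of wells, so the replicate number paired them. In mono-cultures the correlations were 0.0628 to 0.164. The labels call the replicates biological, and p-values describe the spread between these wells. The number of arrays limits the precision. Alternatives covered normalization, filters, probe choice, variance models, thresholds, the replicate block and leaving out each array.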

Additional observations from a re-analysis of the deposited data

Results flagged for a closer look

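For 4 results a test of the difference between the culture types passed the thresholds. The FGF2 difference of DLL1 against -GFs was -1.83 in co-cultures and -0.38 in mono-cultures, where its values were near the detection limit. These differed by -1.44 (adjusted p 0.0329). The FGF2 difference of HES1 was 0.15 and -1.15, a difference of 1.30 (adjusted p 0.0106). That of JAG1 was -0.25 and -1.35, a difference of 1.10 (adjusted p 0.0964), with co-culture values near the detection limit. The BMP4 difference of HEY1 was 0.10 in co-cultures and 3.16 in mono-cultures, a difference of -3.06 (adjusted p 0.0219). HEY1 in ES/PA6 -GFs already stood at 8.32 to 9.75, above the 6.29 to 6.94 of PA6 -GFs. With the replicate set as a block, the FGF2 difference of HEY1 between the culture types was called as well (1.24, adjusted p 0.00545). With 3 arrays per group no array could be screened as standing apart within its group.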

How the results depend on the processing

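The 72 member results gave 1524 values under alternatives, of which 1468 kept their side of the thresholds, 28 lost a call and 28 gained one. No called result changed direction, and 37 uncalled values changed sign. With detection required on all 18 arrays, fewer genes were tested. DLL1, JAG1, HES5 and HEY1, detected on 16, 17, 5 and 14 arrays, were left out, so the counts do not bear on their calls. Of the members still tested, 0 were called for FGF2 in co-cultures, 1 for FGF2 in mono-cultures (HES1) and 0 for BMP4 in mono-cultures. For FGF2 against BMP4 in mono-cultures 1 was called (HES1), and 1 between culture types (NOTCH4). The FGF2 difference between culture types gave 1 (HES1) and that of BMP4 gave 0. For FGF2 in co-cultures 2 members were called under median scaling, with array weights and without the fold threshold (DLL1 and NOTCH4). For FGF2 in mono-cultures 1 was called under quantile normalization without background correction and under the cubic spline. Without the fold threshold 2 were called for BMP4 in mono-cultures (HEY1, NOTCH3).

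The replicate block within each culture type called 1 member for BMP4 in co-cultures (DLL1) and 1 for FGF2 against BMP4 there (HES5), and added HEY1 to the FGF2 difference between culture types (adjusted p 0.00545). Over all genes the block raised the BMP4 calls in co-cultures from 125 to 215 and those of the BMP4 difference between culture types from 92 to 305, and it changed no other member call. It could not be fitted to the comparison between culture types, where a random block gave 5 members, as the fit without one did. Trended and robust variances called 1 for BMP4 in co-cultures (DLL1). Leaving out each array gave 1 to 2 for FGF2 and 0 to 1 for BMP4 in co-cultures, 1 to 3 for FGF2 in mono-cultures (1, JAG1, without PA6 FGF2 replicate 1), and 0 to 1 between the factors in co-cultures. Without replicate set 1 of the co-cultures, added after seeing the data, HES5 was the 1 member called for BMP4 and the 1 between the factors, and 2 were called for the BMP4 difference between culture types (HES5 and HEY1). These HES5 calls were built in, since without set 1 HES5 was detected only on -GFs and FGF2 co-culture arrays. The causes of these shifts were not tested. Probes near the detection limit (HES5, JAG1 in co-cultures, DLL1 in mono-cultures, HEY1 with FGF2) have only weakly bounded levels.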

Other observations

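For the members called against -GFs, genes among the 3 whose log2 values ran most like theirs over the 18 arrays are given as a description, since these arrays share culture types and media. For JAG1 these were PYGB (Pearson r 0.976), a glycogen phosphorylase, and SESN1 (0.968), a stress-response protein. Within the 9 mono-cultures their r was 0.975 and 0.947 and within the 9 co-cultures 0.856 and 0.645. For HES1 they were ANP32A (0.921), ACOT7 (0.891), an acyl-CoA thioesterase, and ENSMUSG00000054212 (0.877). For HEY1 they were SLC13A4 (0.934), a sulfate transporter, OSGEP (0.915) and MBD4 (0.898), with MBD4 at -0.0343 within co-cultures and 0.963 within mono-cultures. For DLL1 they were AI448196 (0.922), LOC383807 (0.917) and GSTT2 (0.91), a glutathione transferase, which ran with DLL1 within co-cultures (0.915 to 0.963) and less within mono-cultures (0.0283 to 0.42).

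Between culture types in -GFs medium, 11 of the 31 tested pathway genes were called, beside 39.0% of all genes. NRARP, MFNG, JAG2 and DTX1 were detected on no mono-culture array and HEY2 on no co-culture array. These genes thus passed the detection filter through a single culture type, and their calls between the culture types were built in. DLK1, an atypical Notch ligand known from preadipocytes, was at 15.77 to 15.85 in PA6 -GFs, 15.10 to 15.13 with FGF2 and 15.81 to 15.83 with BMP4. In co-cultures it lay between 14.11 and 14.85.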
